A study of Homo sapiens with 12 samples.

Results

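The genes of the mitochondrial ribosome were taken as every gene whose symbol in the probe annotation begins with MRPL or MRPS followed by a number. The pattern matched 77 of 19775 genes on the array. At least 3 of 12 arrays at a log2 signal of 5 or more were required for a test, which 76 of the 77 met, among 18621 genes tested in all. Of these 76, 75 encode proteins and are described here as mitoribosomal protein genes, 48 named for the large subunit and 27 for the small subunit. All 75 stood at or above log2 5 on all 12 arrays, so none of them was admitted by 1 group alone. The tested gene that encodes no ribosomal protein is MRPL20-AS1, an antisense RNA, and the gene that was not tested is MRPL45P2, a pseudogene that reached the level on 0 arrays.

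Mitochondrial ribosomes translate the few mRNAs that mitochondrial DNA encodes, all of them for subunits of the respiratory chain and ATP synthase. The rRNAs of the particle come from mitochondrial DNA, whereas its proteins are encoded in the nucleus, made in the cytosol and imported. Some of these proteins descend from bacterial ribosomal proteins, and others have no bacterial counterpart and belong to the mitochondrial particle alone.

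A549, the line used throughout, is an epithelial cell line from a human lung adenocarcinoma, and its RNA was read on 1-colour Affymetrix arrays. The SDS3 knockdown (3 arrays) received an SDS3 targeting siRNA and was set against SDS3 controls with a non-targeting siRNA (3 arrays). The FAM60A knockdown (3 arrays) received a FAM60A targeting siRNA and was set against its own non-targeting controls (3 arrays). Both proteins belong to the SIN3-HDAC co-repressor, which brings histone deacetylases to chromatin, and the question put by each comparison is what its loss does to the transcripts of the cell. All cells were transfected with 50 nM siRNA and lysed 3 days later, and every group is the same cell line. The treatment notes name 1 FAM60A siRNA and 1 non-targeting siRNA and do not name the SDS3 siRNA. In neither experiment can effects of the siRNAs on other transcripts be told apart from depletion of the target. The labels describe wells plated in triplicate and name no separate cultures, so a p-value here reflects the spread of these samples alone, and that spread may be technical.

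Each targeted gene fell in its own experiment. SUDS3, the current symbol of SDS3, read 8.48, 8.32 and 8.62 (log2 signal) in SDS3 knockdown cells, against 10.11, 10.02 and 10.03 in SDS3 controls. SINHCAF, the current symbol of FAM60A, read 9.36, 9.12 and 9.43 in FAM60A knockdown cells, against 11.99, 11.97 and 12.01 in FAM60A controls. The targets were thus at 33.4% and 15.5% of their own controls. The array medians lay between 96.8 and 98.3 signal units in the SDS3 experiment and between 186 and 193 in the FAM60A experiment, and no level is compared across the experiments. All 5 epithelial markers were present, from 8.70 to 15.09 (log2 signal) over the 12 arrays. Markers of other cell types gave signal too, up to 7.87 (leukocyte), 8.69 (endothelial) and 8.19 (fibroblast). Of the 5 epithelial markers 4 fell and 1 rose in SDS3 knockdown cells, beside 18.8% and 15.8% of all tested genes. In FAM60A knockdown cells 1 fell and 2 rose, beside 17.6% and 19.2%. EPCAM fell in both (-0.58 and -1.22).

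Mitoribosomal transcripts were lower after either knockdown. In SDS3 knockdown cells 40 of the 75 genes fell and 2 rose, where 18.8% of all tested genes fell and 15.8% rose, 34.6% in either direction (limma, Benjamini-Hochberg adjusted p under 0.05 over all tested genes). In FAM60A knockdown cells 43 of the 75 fell and 2 rose, where 17.6% of all tested genes fell and 19.2% rose, 36.8% in either direction. The typical fall was small. The median change (log2, knockdown minus control) over the 75 genes was -0.17 in SDS3 knockdown cells and -0.20 in FAM60A knockdown cells, which is 88.9% and 86.9% of the control level. Over all tested genes the median change was 0.0064 in SDS3 knockdown cells and -0.023 in FAM60A knockdown cells. In a bulk sample, fewer cells with a transcript and less of it per cell cannot be told apart.

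The separation between arrays followed the same pattern. All 3 SDS3 knockdown arrays lay below all 3 SDS3 control arrays for 52 of the 75 genes, and all above for 5, where 25.2% and 22.4% of all tested genes did so. All 3 FAM60A knockdown arrays lay below all 3 FAM60A control arrays for 49 genes, and all above for 4, where 24.4% and 23.7% of all tested genes did so. Mitoribosomal genes are well expressed in these cells. Among the 15026 genes at log2 7 or more, a level that all 75 reached, 24.3% fell in SDS3 knockdown cells and 21.6% fell in FAM60A knockdown cells when adjusted over those genes.

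Technical signals moved with the knockdowns too. The mean of 24 poly-A spike-in probe sets, RNA added in the laboratory, stood 0.32 higher (log2) in SDS3 knockdown cells and 0.10 higher in FAM60A knockdown cells (two-sided exact permutation p = 0.1 and 0.5, where 0.1 is the smallest possible). The 3 probe sets for 18S rRNA stood 0.53 higher in SDS3 knockdown cells and 0.28 higher in FAM60A knockdown cells, each with p = 0.1 by the same exact test. With each array scaled to its spike-ins, 65 of the 75 genes fell in SDS3 knockdown cells, where 49% of all tested genes fell. With the same scaling 30 fell in FAM60A knockdown cells, where 12.1% of all tested genes fell, and 0 rose in either. The spike-in scaling moved the median of all tested genes to -0.32 in SDS3 knockdown cells and -0.12 in FAM60A knockdown cells. The difference between 3' and 5' ACTB probe sets, a sign of RNA length, ran from -0.024 to 0.022 in FAM60A knockdown cells, against 0.070 to 0.11 in FAM60A controls (exact p = 0.1). In the SDS3 experiment the ACTB difference changed by -0.013 in knockdown cells (exact p = 0.7), and the GAPDH difference moved by 0.0048 in the SDS3 and 0.00072 in the FAM60A experiment (exact p = 1 in each). The part of the 18S rRNA and ACTB signals in the falls was not tested.

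Genes of both subunits fell in both experiments. In SDS3 knockdown cells 27 of 48 large subunit genes fell and 0 rose, against 13 of 27 small subunit genes that fell and 2 that rose. In FAM60A knockdown cells 31 of 48 large subunit genes fell and 1 rose, against 12 of 27 small subunit genes that fell and 1 that rose. The median change of large subunit genes was -0.19 in SDS3 knockdown cells and -0.21 in FAM60A knockdown cells, against -0.14 and -0.16 for small subunit genes. The large minus small difference in medians was -0.044 (log2) in SDS3 knockdown cells and -0.049 in FAM60A knockdown cells, and no test was made of it. It depended on single arrays. It was -0.028 without SDS3 control replicate 2, and -0.022, -0.089 and -0.075 without FAM60A control replicate 1, FAM60A control replicate 2 and FAM60A knockdown replicate 1. The small subunit median in FAM60A knockdown cells was -0.092 without FAM60A control replicate 2.

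Names do not decide the subunit in every case. MRPS30 (mL65) and MRPS18A (mL66) sit in the large subunit of the human structure. MRPS30 read 10.83, 10.87 and 10.81 in SDS3 knockdown cells against 11.12, 11.15 and 11.11 in SDS3 controls, a fall of 0.29 that passed (adjusted p = 0.00168). The same gene read 11.43, 11.43 and 11.29 in FAM60A knockdown cells against 11.76, 11.89 and 11.75 in FAM60A controls, a change of -0.42 (adjusted p = 0.000438). The arrays did not overlap in either experiment. Over the mean of its probe sets MRPS30 changed by -0.18 in each (adjusted p = 0.0163 and 0.0126). MRPS18A changed by -0.21 in SDS3 knockdown cells and by -0.34 in FAM60A knockdown cells (adjusted p = 0.0102 and 0.0061). With both genes counted as large, 29 of 50 large and 11 of 25 small subunit genes fell in SDS3 knockdown cells, and 33 of 50 large and 10 of 25 small subunit genes fell in FAM60A knockdown cells. The large minus small difference then came to -0.068 and -0.098.

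**Figure D1:**
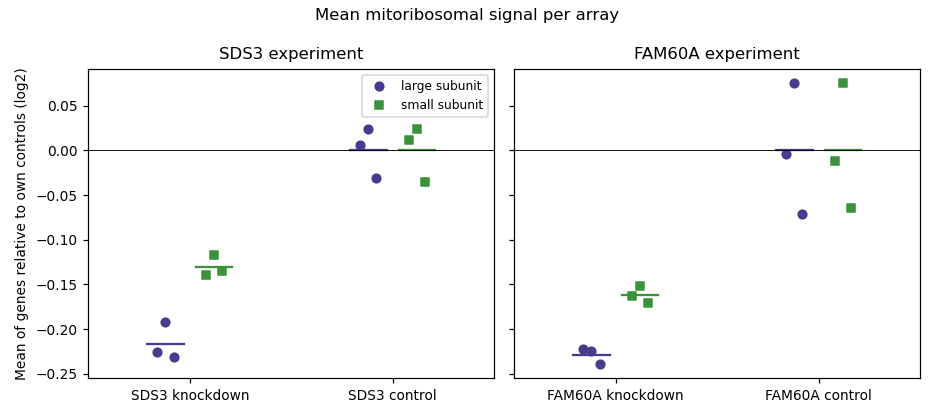
Mean log2 signal of 48 large (circles) and 27 small (squares) subunit genes on each array, relative to the mean of that experiment's 3 controls; bars are group means of 3 arrays. Knockdown arrays lie between -0.23 and -0.12 in the SDS3 experiment and between -0.24 and -0.15 in the FAM60A experiment, below every control array, and the large subunit mean is below the small subunit mean on each knockdown array.

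Per array, the large subunit mean stood at -0.23, -0.19 and -0.23 on the SDS3 knockdown arrays, against 0.0064, 0.025 and -0.031 on the SDS3 control arrays. It stood at -0.22, -0.22 and -0.24 on the FAM60A knockdown arrays, against -0.0042, 0.075 and -0.071 on the FAM60A control arrays. Every knockdown array lay below every control array of its experiment, and the FAM60A control arrays were spread more widely than the SDS3 control arrays. The small subunit mean stood at -0.14, -0.12 and -0.14 on the SDS3 knockdown arrays, against 0.012, 0.024 and -0.036 on the SDS3 control arrays. It stood at -0.16, -0.15 and -0.17 on the FAM60A knockdown arrays, against -0.012, 0.076 and -0.064 on the FAM60A control arrays.

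Proteins with and without a bacterial counterpart were both represented among the genes that fell. Of 30 genes classed as having no bacterial counterpart, 17 fell in SDS3 knockdown cells and 20 fell in FAM60A knockdown cells, with a median change of -0.23 in each. MRPS18A and MRPS18B, which fell in both experiments, were counted among the 30, and MRPS18C was not, although all carry the S18 name. Of 45 genes with a bacterial counterpart, 23 fell in each knockdown, with medians of -0.16 in SDS3 knockdown cells and -0.18 in FAM60A knockdown cells. No gene classed as without a bacterial counterpart rose in either experiment. The difference between these classes was not tested.

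**Figure D2:**
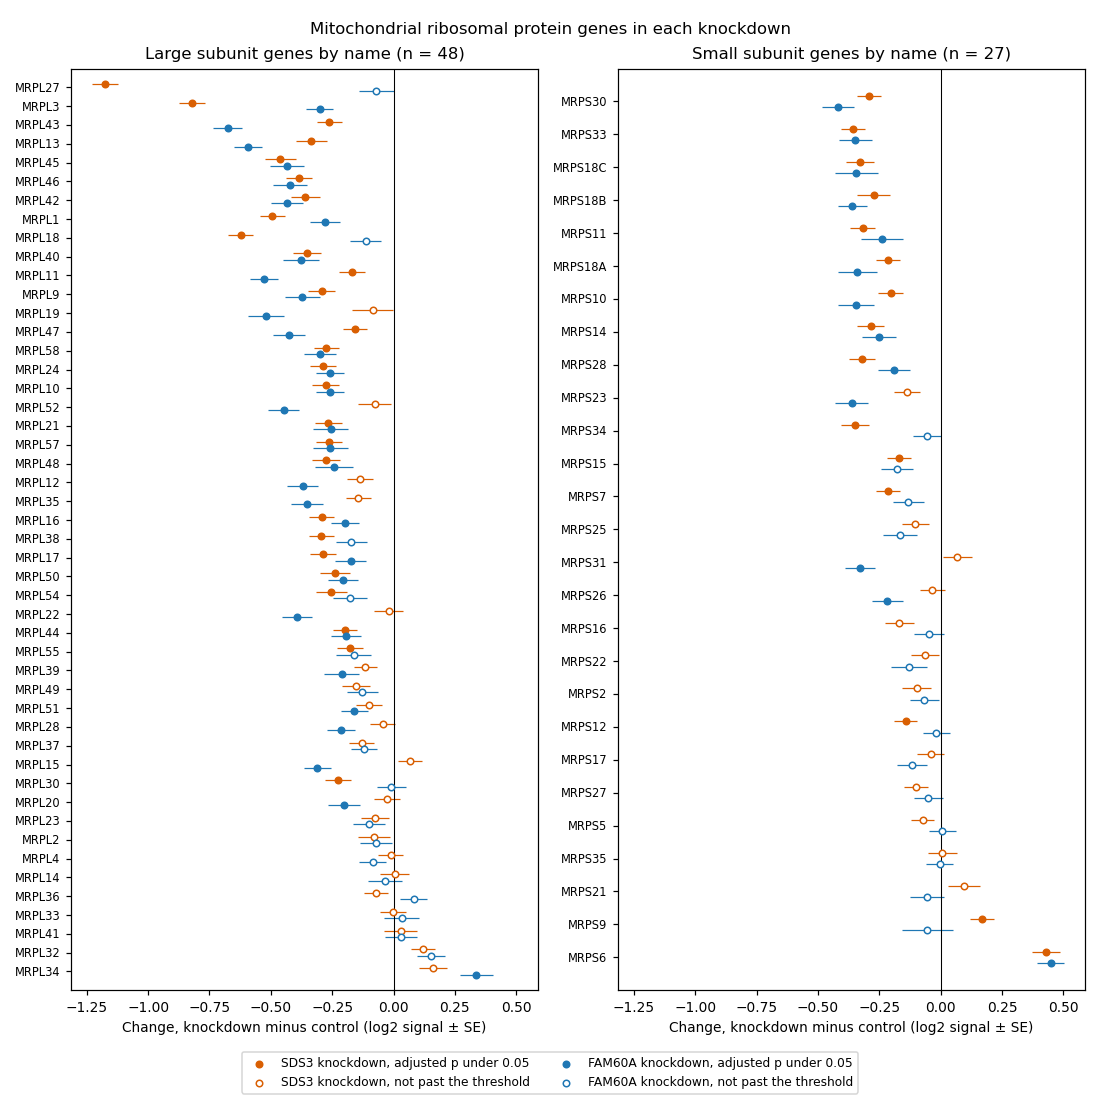
Change of each of the 75 mitoribosomal protein genes (log2 signal, knockdown minus control, with limma's SE), large subunit on the left and small subunit on the right, ordered by the mean of both changes. Filled points passed an adjusted p of 0.05: 40 fell and 2 rose in SDS3 knockdown cells (orange), 43 fell and 2 rose in FAM60A knockdown cells (blue).

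The deepest falls differed between the knockdowns. In the SDS3 experiment the deepest was that of MRPL27 (bL27m), which in bacteria reaches towards the peptidyl transferase centre. MRPL27 read 11.16, 11.08 and 11.11 in SDS3 knockdown cells, against 12.34, 12.29 and 12.25 in SDS3 controls. The 2 sets of arrays were far apart, a change of -1.17 ± 0.053 (SE) or 44.3% of control (adjusted p = 2.01e-06). MRPL27 has a single probe set, of a class whose sequence is shared between transcripts, so no other probe set could be set beside it. In the other experiment MRPL27 read 12.71, 12.75 and 12.68 in FAM60A knockdown cells, against 12.69, 12.94 and 12.72 in FAM60A controls. Those arrays overlapped and the change of -0.070 did not pass (adjusted p = 0.485).

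MRPL3 (uL3m), whose bacterial counterpart joins the large subunit early in assembly, was second in the SDS3 experiment. It read 12.09, 12.01 and 12.05 in SDS3 knockdown cells, against 12.91, 12.87 and 12.83 in SDS3 controls, a change of -0.82 ± 0.052 (adjusted p = 9.29e-06). MRPL3 also fell in the FAM60A experiment, with 13.26, 13.22 and 13.23 in knockdown cells against 13.60, 13.52 and 13.50 in controls (-0.30, adjusted p = 0.00142). No arrays overlapped in either experiment. MRPL18 (uL18m), a protein of the central protuberance, read 11.25, 11.35 and 11.31 in SDS3 knockdown cells, against 11.95, 11.90 and 11.92 in SDS3 controls (-0.62 ± 0.051, adjusted p = 3.4e-05). In FAM60A knockdown cells it was lower on every array but did not pass (-0.11, adjusted p = 0.189). MRPL1 (uL1m), of the mobile stalk beside the exit site for tRNA, changed by -0.50 in SDS3 knockdown cells and by -0.28 in FAM60A knockdown cells, with no overlap of arrays (adjusted p = 0.000123 and 0.0037).

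In the FAM60A experiment the deepest fall was that of MRPL43 (mL43), a large subunit protein without a bacterial counterpart. MRPL43 read 11.09, 11.09 and 11.03 in FAM60A knockdown cells, against 11.80, 11.78 and 11.66 in FAM60A controls (-0.67 ± 0.059, 62.6% of control, adjusted p = 7.64e-06). In the SDS3 experiment it read 10.89, 10.92 and 10.91 in knockdown cells, against 11.19, 11.19 and 11.12 in controls (-0.26, adjusted p = 0.0036). Groups did not overlap in either case. The gene has 3 probe sets, and all 3 fell in both experiments, with changes of -0.26, -0.40 and -0.31 in SDS3 knockdown cells and of -0.67, -0.70 and -0.77 in FAM60A knockdown cells.

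MRPL13 (uL13m), a core protein shared with bacteria, read 11.86, 11.93 and 11.82 in FAM60A knockdown cells, against 12.48, 12.48 and 12.42 in FAM60A controls (-0.59 ± 0.056, adjusted p = 1.35e-05). It also fell in SDS3 knockdown cells (-0.33, adjusted p = 0.00331). MRPL11 (uL11m) is part of the stalk base where elongation factors bind. It read 11.32 on each of the 3 FAM60A knockdown arrays, against 11.86, 11.91 and 11.76 in FAM60A controls (-0.53 ± 0.058, adjusted p = 3.81e-05). The change in SDS3 knockdown cells was -0.17 (adjusted p = 0.0391). MRPL13 and MRPL11 each have a single probe set, also of the class with shared sequence. MRPL19 (bL19m) read 10.87, 10.76 and 10.66 in FAM60A knockdown cells, against 11.26, 11.18 and 11.40 in FAM60A controls (-0.52, adjusted p = 0.000273). For MRPL19 the probe sets disagreed. Its other two probe sets changed by -0.099 and -0.017 in FAM60A knockdown cells without passing, 1 of them fell by 0.56 in SDS3 knockdown cells where the main probe set did not pass, and the mean over its probe sets in FAM60A knockdown cells was -0.21 (adjusted p = 0.11).

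MRPL52 (mL52) and MRPL47 (uL29m) were also among the deepest falls in FAM60A knockdown cells, at -0.45 and -0.43 (adjusted p = 0.000227 and 0.000471). MRPL52 overlapped between groups in the SDS3 experiment (-0.078, adjusted p = 0.409), whereas MRPL47 fell there by 0.16 (adjusted p = 0.0353). Over the mean of their probe sets the FAM60A changes of MRPL52 and MRPL47 were -0.29 and -0.28 and still passed.

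**Figure D3:**
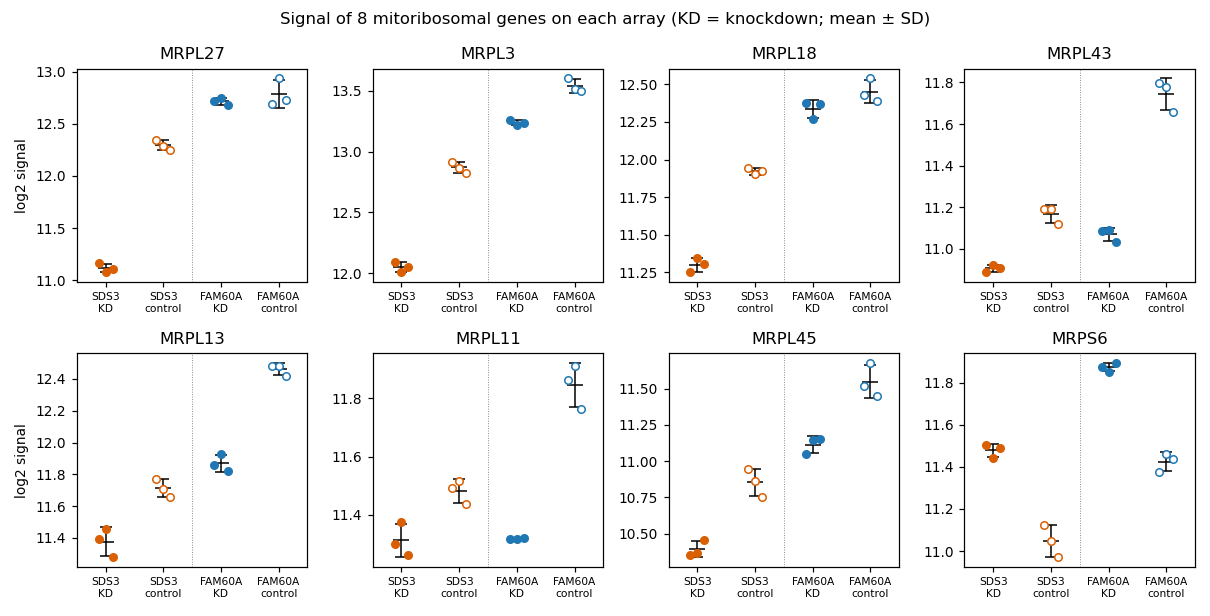
Log2 signal on each of the 12 arrays for 8 genes, knockdown (filled) beside its own control (open), SDS3 experiment left of the dotted line and FAM60A experiment right; lines give mean ± SD of 3 arrays. MRPL27 separates in the SDS3 experiment (change -1.17) and overlaps in the FAM60A experiment (-0.070), MRPL45 is lower in both knockdowns, and MRPS6 is higher in both.

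Most genes that fell in 1 knockdown fell in the other. In all, 30 of the 75 fell in both, which is 75% of the 40 that fell in SDS3 knockdown cells and 69.8% of the 43 that fell in FAM60A knockdown cells. Over all tested genes 8.76% fell in both, which is 46.7% of those that fell in SDS3 knockdown cells and 49.8% of those that fell in FAM60A knockdown cells. These shares have unlike base rates. In SDS3 knockdown cells 53.3% of the 75 genes fell, against 18.8% of all tested genes. The values in FAM60A knockdown cells were 57.3% and 17.6%. The larger shares among the 75 are thus not shown to be closer agreement between the knockdowns. The experiments share no control array. Another 10 genes fell in SDS3 knockdown cells alone by this threshold and 13 in FAM60A knockdown cells alone, 0 were called in opposite directions and 19 were called in neither.

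Close values in both knockdowns occurred among genes with and without a bacterial counterpart. Of those with one, MRPL10 changed by -0.28 in SDS3 knockdown cells and -0.26 in FAM60A knockdown cells, and MRPL21 by -0.27 and -0.26. The genes that follow encode proteins of the mitochondrial particle alone. MRPL45 (mL45), which lies at the exit of the peptide tunnel and helps to dock the ribosome at the inner membrane, read 10.36, 10.37 and 10.46 in SDS3 knockdown cells, against 10.94, 10.86 and 10.76 in SDS3 controls. It read 11.05, 11.14 and 11.15 in FAM60A knockdown cells, against 11.52, 11.68 and 11.45 in FAM60A controls. The changes were -0.46 and -0.43 (adjusted p = 0.000603 and 0.000501), and no arrays overlapped. MRPL46 (mL46) changed by -0.38 in SDS3 knockdown cells and -0.42 in FAM60A knockdown cells (adjusted p = 0.000615 and 0.000719), and MRPL42 (mL42) by -0.36 and -0.44 (adjusted p = 0.00159 and 0.000346). The MRPL42 call in SDS3 knockdown cells rests on a probe set of shared sequence, and the probe set without it changed by -0.014 (adjusted p = 0.914). MRPL40 (mL40) changed by -0.35 in SDS3 knockdown cells and -0.38 in FAM60A knockdown cells (adjusted p = 0.00131 and 0.00212). Among small subunit genes MRPS33 (mS33) changed by -0.36 in SDS3 knockdown cells and -0.35 in FAM60A knockdown cells (adjusted p = 0.000664 and 0.00188).

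Several functional sites can be followed through genes that were picked for their role after the values were seen. At the stalk that recruits translation factors, MRPL10 and MRPL11 fell in both experiments, with changes of -0.28 and -0.17 in SDS3 knockdown cells and of -0.26 and -0.53 in FAM60A knockdown cells. MRPL12, the stalk protein that also binds the mitochondrial RNA polymerase, changed by -0.14 in SDS3 knockdown cells without passing (adjusted p = 0.0741) and by -0.37 in FAM60A knockdown cells (adjusted p = 0.000921). Around the exit of the peptide tunnel, MRPL24 fell in both (-0.29 and -0.26), MRPL22 changed by -0.020 in SDS3 knockdown cells and fell in FAM60A knockdown cells (-0.39), and MRPL23 passed in neither (-0.075 and -0.10). MRPL58, a peptidyl-tRNA hydrolase that rescues stalled ribosomes and is built into the large subunit, changed by -0.27 in SDS3 knockdown cells and -0.30 in FAM60A knockdown cells (adjusted p = 0.00326 and 0.00377). MRPS12, of the decoding centre, changed by -0.14 in SDS3 knockdown cells and -0.017 in FAM60A knockdown cells (adjusted p = 0.0464 and 0.837). Its probe sets disagreed, since another pair rose in FAM60A knockdown cells (0.19 and 0.24, adjusted p = 0.0361 and 0.019), and 1 of that pair fell in SDS3 knockdown cells (-0.29, adjusted p = 0.0167).

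Of the few genes that rose, MRPS6 (bS6m), a protein of the small subunit platform, was the only member called higher in both. MRPS6 read 11.50, 11.44 and 11.49 in SDS3 knockdown cells, against 11.13, 11.05 and 10.97 in SDS3 controls. It read 11.87, 11.85 and 11.89 in FAM60A knockdown cells, against 11.38, 11.46 and 11.44 in FAM60A controls. Every knockdown array lay above every control array, and the changes of 0.43 ± 0.057 and 0.45 ± 0.054 came to 134.7% and 136.4% of control (adjusted p = 0.000492 and 7.71e-05). With spike-in scaling the MRPS6 changes were 0.11 in SDS3 knockdown cells and 0.35 in FAM60A knockdown cells and neither passed (adjusted p = 0.505 and 0.0555).

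In RefSeq's gene table SLC5A3, the sodium and myo-inositol cotransporter, starts at the same base as MRPS6 on the same strand, and it was looked up after the MRPS6 values were seen. SLC5A3 read 9.82, 9.59 and 9.85 in SDS3 knockdown cells, against 9.81, 9.87 and 9.82 in SDS3 controls. It read 9.71, 9.71 and 9.65 in FAM60A knockdown cells, against 10.36, 10.45 and 10.39 in FAM60A controls. In FAM60A knockdown cells SLC5A3 thus fell (-0.71, adjusted p = 3.13e-06) where MRPS6 rose, and in SDS3 knockdown cells its change of -0.080 did not pass (adjusted p = 0.459). Over the mean of its probe sets the SLC5A3 change in FAM60A knockdown cells was -0.28 (adjusted p = 0.00223), and with spike-in scaling that in SDS3 knockdown cells was -0.40 and passed (adjusted p = 0.015).

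MRPL34 (bL34m) read 11.17, 11.15 and 11.12 in FAM60A knockdown cells, against 10.72, 10.95 and 10.75 in FAM60A controls (0.34, adjusted p = 0.00273). In SDS3 knockdown cells its change of 0.16 did not pass (adjusted p = 0.0592). MRPS9 (uS9m), of the head of the small subunit, read 10.08, 10.06 and 10.11 in SDS3 knockdown cells, against 9.90, 9.94 and 9.89 in SDS3 controls (0.17, adjusted p = 0.0259). This last call was fragile. It was lost with any SDS3 array left out except knockdown replicate 2, with all 12 arrays in 1 fit (adjusted p = 0.158), with the replicate number as a block (adjusted p = 0.0698), and the sign turned with spike-in scaling (-0.15, adjusted p = 0.335). The MRPL34 rise did not pass with spike-in scaling either (0.24, adjusted p = 0.232).

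The responses themselves were compared gene by gene in a fit of all 12 arrays, as the SDS3 change minus the FAM60A change. Of the 75 genes, 14 differed, 10 with a higher and 4 with a lower response in the SDS3 experiment, where 9.99% and 15.3% of all tested genes did so, 25.3% in all. The 4 lower ones were MRPL27 (-1.10), MRPL3 (-0.52), MRPL18 (-0.51) and MRPS34 (-0.29). MRPS34 (mS34), needed in mouse for stability of the small rRNA, read 10.78, 10.85 and 10.90 in SDS3 knockdown cells, against 11.24, 11.20 and 11.14 in SDS3 controls (-0.35, adjusted p = 0.00139). It read 11.88, 11.90 and 11.87 in FAM60A knockdown cells, against 11.95, 11.99 and 11.87 in FAM60A controls (-0.055, adjusted p = 0.491), and those arrays overlapped.

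The genes with the largest higher response were MRPL19 (0.43), MRPL43 (0.41), MRPS31 (0.40), MRPL15 (0.38) and MRPL22 (0.37), all of them lower in FAM60A knockdown cells. MRPS31 (mS31) read 9.92, 10.08 and 9.97 in SDS3 knockdown cells, against 9.86, 9.94 and 9.97 in SDS3 controls, which overlapped. It read 10.15, 10.16 and 10.11 in FAM60A knockdown cells, against 10.54, 10.49 and 10.38 in FAM60A controls (-0.33, adjusted p = 0.00139). MRPL15 (uL15m) was higher on every SDS3 knockdown array than on any SDS3 control array without passing (0.067, adjusted p = 0.333) and fell in FAM60A knockdown cells (-0.31, adjusted p = 0.00116). The differences of MRPL19, MRPL43, MRPS31, MRPL15, MRPL22 and MRPS34 did not pass with spike-in scaling (0.21, 0.19, 0.17, 0.16, 0.15 and -0.52), where 3 genes differed in all. The MRPL19 difference was 0.029 over the mean of its probe sets (adjusted p = 0.904), and the MRPS31 difference was 0.24 over the mean of its own (adjusted p = 0.0279).

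**Figure D4:**
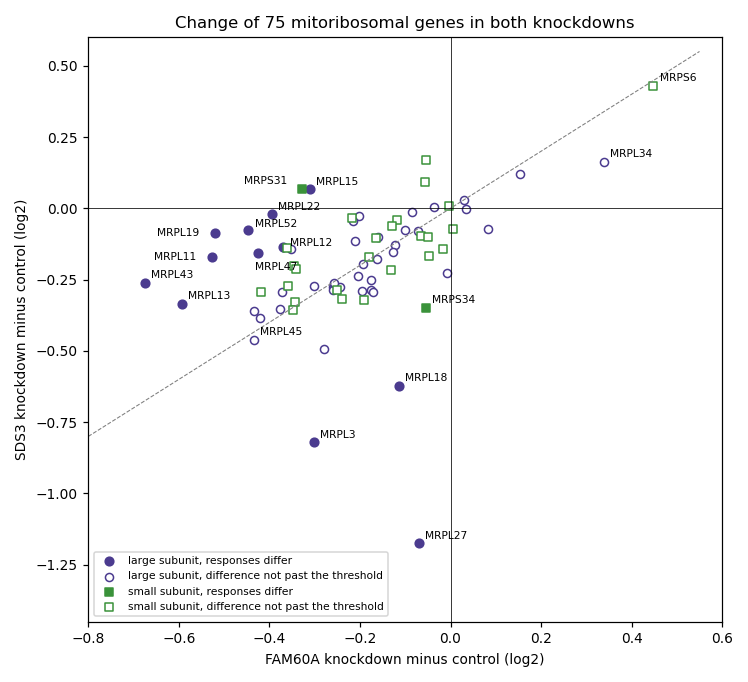
Change of each of the 75 genes in FAM60A knockdown cells (x axis, log2) against its change in SDS3 knockdown cells (y axis, log2); the dashed line marks equal changes and filled symbols mark the 14 genes whose responses differ at an adjusted p of 0.05. MRPL27 stands at -1.17 on the y axis and -0.070 on the x axis, and MRPS6 lies in the upper right at 0.43 and 0.45.

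Probe sets were not interchangeable for every gene. The 75 genes had 140 probe sets, 37 genes had more than 1, and 45 of the probe sets used are of a class whose sequence is shared between transcripts. Of the 42 genes called in SDS3 knockdown cells 19 had a further probe set, and for 8 of them another one passed in the same direction and for 0 in the opposite one. Of the 45 genes called in FAM60A knockdown cells 22 had a further probe set, 13 of them with another call in the same direction and 1 in the opposite one. That gene was MRPS14 (uS14m), whose main probe set fell by 0.25 in FAM60A knockdown cells while another rose by 0.23 (adjusted p = 0.0342). Genes whose main probe set was not called are outside these counts, and other probe sets of theirs passed in either direction. In SDS3 knockdown cells one of MRPL4 rose by 0.36 (adjusted p = 0.0044) and one of MRPL35 fell by 0.47 (adjusted p = 0.00235). In FAM60A knockdown cells one of MRPS25 rose by 0.24 (adjusted p = 0.03). The antisense RNA MRPL20-AS1 read 7.94, 8.14 and 7.97 in SDS3 knockdown cells, against 8.29, 8.14 and 8.26 in SDS3 controls (-0.21, adjusted p = 0.0427), and changed by -0.017 in FAM60A knockdown cells (adjusted p = 0.883). MRPL45P2 was near the bottom of the scale on every array, from 2.47 to 3.42 (log2 signal).

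Promoter windows are shown for the genes whose changes the account turns on, namely 3 of the deepest falls of each knockdown and the gene that rose in both. The FAM60A set leaves out MRPL13, the second deepest fall there (-0.59), and holds MRPL19, whose probe sets disagreed. Each window runs from 250 bases before to 50 bases after the RefSeq start (GRCh38.p14) and is written 5′ to 3′ on the gene's strand. Capitals mark a CCGGAAG (the core of sites for ETS factors) or an AAGATGG (a core of YY1 sites), searched on both strands together with GCGCA and GCGC set 1 base apart (NRF1), and are the letters of the match on the strand shown. The SDS3 falls are MRPL27 (chr17:50373135-50373434, minus strand), MRPL3 (chr3:131502922-131503221, minus strand) and MRPL18 (chr6:159789562-159789861, plus strand, 1 of 3 windows listed). The FAM60A falls are MRPL43 (chr10:100987448-100987747, minus strand), MRPL11 (chr11:66438799-66439098, minus strand) and MRPL19 (chr2:75646533-75646832, plus strand). MRPS6 is at chr21:34073328-34073627, plus strand.
MRPL27: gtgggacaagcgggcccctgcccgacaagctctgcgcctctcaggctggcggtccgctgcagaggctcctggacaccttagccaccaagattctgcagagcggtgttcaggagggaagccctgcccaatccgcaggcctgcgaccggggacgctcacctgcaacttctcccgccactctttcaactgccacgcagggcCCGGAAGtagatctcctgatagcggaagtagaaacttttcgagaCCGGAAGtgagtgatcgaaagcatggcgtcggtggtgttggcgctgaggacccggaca
MRPL3: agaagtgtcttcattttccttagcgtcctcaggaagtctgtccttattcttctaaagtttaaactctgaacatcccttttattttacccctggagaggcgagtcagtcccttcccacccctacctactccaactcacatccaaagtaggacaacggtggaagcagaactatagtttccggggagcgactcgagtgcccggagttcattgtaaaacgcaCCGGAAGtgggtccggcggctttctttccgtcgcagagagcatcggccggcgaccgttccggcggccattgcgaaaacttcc
MRPL18: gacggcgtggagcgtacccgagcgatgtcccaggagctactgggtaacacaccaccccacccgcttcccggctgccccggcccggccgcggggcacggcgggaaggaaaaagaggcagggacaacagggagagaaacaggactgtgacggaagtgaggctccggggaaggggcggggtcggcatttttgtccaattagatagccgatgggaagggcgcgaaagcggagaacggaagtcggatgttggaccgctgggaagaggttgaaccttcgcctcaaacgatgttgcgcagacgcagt
MRPL43: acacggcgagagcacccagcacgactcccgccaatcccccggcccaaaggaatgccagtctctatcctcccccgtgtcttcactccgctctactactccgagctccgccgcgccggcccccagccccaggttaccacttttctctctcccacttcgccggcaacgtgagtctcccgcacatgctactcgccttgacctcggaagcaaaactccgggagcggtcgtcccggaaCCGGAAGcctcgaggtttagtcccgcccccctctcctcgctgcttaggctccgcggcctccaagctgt
MRPL11: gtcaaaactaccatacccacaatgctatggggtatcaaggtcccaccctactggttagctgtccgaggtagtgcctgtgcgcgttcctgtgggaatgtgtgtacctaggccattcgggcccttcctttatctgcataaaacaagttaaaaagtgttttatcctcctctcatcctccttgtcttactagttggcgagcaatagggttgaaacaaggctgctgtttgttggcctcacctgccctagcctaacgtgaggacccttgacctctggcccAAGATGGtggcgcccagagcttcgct
MRPL19: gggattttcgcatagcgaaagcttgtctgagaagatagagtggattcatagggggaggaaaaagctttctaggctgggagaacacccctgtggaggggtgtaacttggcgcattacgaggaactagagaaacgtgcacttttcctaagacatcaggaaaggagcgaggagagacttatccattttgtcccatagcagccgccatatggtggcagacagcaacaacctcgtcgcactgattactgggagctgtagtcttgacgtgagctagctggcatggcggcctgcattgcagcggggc
MRPS6: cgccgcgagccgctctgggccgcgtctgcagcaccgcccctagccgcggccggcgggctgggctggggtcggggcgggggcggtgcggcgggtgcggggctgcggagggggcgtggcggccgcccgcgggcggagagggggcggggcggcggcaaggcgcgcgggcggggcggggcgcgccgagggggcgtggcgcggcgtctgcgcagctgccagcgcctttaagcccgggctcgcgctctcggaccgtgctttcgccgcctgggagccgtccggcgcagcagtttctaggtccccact

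The MRPL27 window holds 2 ETS cores, MRPL3 and MRPL43 hold 1 each, MRPL11 holds a YY1 core just after its start, and MRPL18, MRPL19 and MRPS6 hold none of these letters. RefSeq's table gave 83 windows for 67 of the 75 genes. CCGGAAG stood in 38.6% of them, against 10.3% of all 35116 windows, 13.3% of the windows of tested genes and 33.3% of the windows of cytosolic ribosomal protein genes. AAGATGG stood in 31.3% of them, against 5.84% of all windows, 6.13% of those of tested genes and 11.5% of those of cytosolic ribosomal protein genes. The NRF1 motif stood in 12%, against 5.78% of all windows, 7.76% of those of tested genes and 8.97% of those of cytosolic ribosomal protein genes. Genes with and without the ETS core fell. With it, 18 of 29 genes fell in SDS3 knockdown cells and 18 of 29 in FAM60A knockdown cells, and without it 18 of 38 and 19 of 38 fell. Also searched, but not marked above, were the E-box CACGTG, the GC box GGGCGG and the CCAAT box. These stood in 10.8%, 59% and 33.7% of the members' windows, against 8.52%, 57.8% and 34.4% of the windows of tested genes. With the CCAAT box 13 of 23 genes fell in SDS3 knockdown cells and 9 of 23 in FAM60A knockdown cells. Without the CCAAT box 23 of 44 and 28 of 44 fell. The other motifs follow in the same order, SDS3 and then FAM60A. With the GC box 21 of 40 and 19 of 40 fell, and without it 15 of 27 and 18 of 27. With the YY1 core 13 of 23 and 14 of 23 fell, and without it 23 of 44 in each. With the NRF1 motif 5 of 9 and 4 of 9 fell, and without it 31 of 58 and 33 of 58. With the E-box 3 of 9 and 4 of 9 fell, and without it 33 of 58 in each. These splits were not tested. A match is a description of these letters and not a site.

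Some of these genes lie head to head with a neighbour. After the members' values were seen, tested genes on the opposite strand that start within 1000 bases were looked up, and 23 members have one. The share of all tested genes with such a neighbour was not counted, so this is not shown to be particular to the family. Of the 12 neighbours outside the family of members that fell in SDS3 knockdown cells 5 fell and 3 rose, beside 18.8% and 15.8% of all tested genes. Of the 7 in FAM60A knockdown cells 4 fell and 2 rose, beside 17.6% and 19.2%. MRPL46 and MRPS11, each other's neighbour with starts 320 bases apart, fell together in both, with MRPS11 at -0.32 in SDS3 knockdown cells and -0.24 in FAM60A knockdown cells (adjusted p = 0.00139 and 0.0487). EME1, a DNA repair endonuclease subunit that starts 45 bases from MRPL27, changed by -0.26 in SDS3 knockdown cells (adjusted p = 0.0433), and by -0.21 without passing after quantile normalization of the 12 arrays (adjusted p = 0.109). Elsewhere the pair parted. ZNF189 rose in both experiments (0.33 and 0.26) where its neighbour MRPL50 fell (-0.24 and -0.20). PPP1R10, a phosphatase regulator, rose in both (0.28 and 0.23) where MRPS18B fell (-0.27 and -0.36). PTCD2 fell in both, with changes of -1.20 in SDS3 knockdown cells and -0.42 in FAM60A knockdown cells (-0.72 and -0.28 over the mean of its probe sets), where MRPS27 passed in neither.

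Other genes of mitochondrial gene expression differed from list to list. The counts of these lists stand beside 18.8% of all tested genes that fell and 15.8% that rose in SDS3 knockdown cells. In FAM60A knockdown cells 17.6% of all tested genes fell and 19.2% rose. Of 13 mitochondrial translation factors 7 fell and 3 rose in SDS3 knockdown cells (median -0.20), and 7 fell and 2 rose in FAM60A knockdown cells (median -0.17). The share that fell, 53.8% in each, was near that of the 75 mitoribosomal genes (53.3% and 57.3%). The falls are thus not particular to the ribosomal proteins. Shares of 23.1% and 15.4% rose, against 2.67% of the 75 genes in each. MTIF2, the initiation factor that places the initiator tRNA, read 10.26, 10.19 and 10.31 in SDS3 knockdown cells, against 10.82, 10.78 and 10.75 in SDS3 controls (-0.53, adjusted p = 0.000125). It read 11.18, 11.05 and 11.18 in FAM60A knockdown cells, against 11.68, 11.70 and 11.66 in FAM60A controls (-0.54, adjusted p = 3.36e-05), with no overlap in either. MTFMT, which formylates the initiator methionyl-tRNA, changed by -0.61 in SDS3 knockdown cells and -0.44 in FAM60A knockdown cells (adjusted p = 4.28e-05 and 0.000135). GUF1, a translation GTPase, rose by 0.25 in SDS3 knockdown cells and by 0.47 in FAM60A knockdown cells (adjusted p = 0.0108 and 0.000136).

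Of 18 mitochondrial aminoacyl-tRNA synthetase genes 7 fell and 2 rose in SDS3 knockdown cells (median -0.15). In FAM60A knockdown cells 6 fell and 4 rose (median -0.096). Shares of 38.9% and 33.3% fell, beside 18.8% and 17.6% of all tested genes, and 11.1% and 22.2% rose, beside 15.8% and 19.2%. LARS2, which charges the leucine tRNAs, read 7.53, 7.61 and 7.71 in SDS3 knockdown cells, against 8.89, 8.94 and 8.90 in SDS3 controls (-1.29, adjusted p = 2.16e-06). It read 8.71, 8.76 and 8.75 in FAM60A knockdown cells, against 9.33, 9.31 and 9.38 in FAM60A controls (-0.60, adjusted p = 9.16e-06). Knockdown and control arrays were far apart in both. CARS2, for cysteine, rose by its brightest probe set (0.58 in SDS3 knockdown cells and 0.80 in FAM60A knockdown cells), and over the mean of its probe sets by 0.099 (adjusted p = 0.144) and 0.16 (adjusted p = 0.0164).

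Of 24 genes of mitoribosome assembly and rRNA modification 8 fell and 4 rose in SDS3 knockdown cells (median -0.038). In FAM60A knockdown cells 7 fell and 3 rose (median -0.017). Shares of 33.3% and 29.2% fell, beside 18.8% and 17.6% of all tested genes, and 16.7% and 12.5% rose, beside 15.8% and 19.2%. The rRNA methyltransferase NSUN4 fell by 0.85 and the assembly factor RCC1L by 0.81 in SDS3 knockdown cells (adjusted p = 6.98e-05 and 2.05e-05). Over the mean of their probe sets the changes were -0.54 and -0.28 (adjusted p = 5.46e-05 and 0.0158). In FAM60A knockdown cells NSUN4 changed by -0.20 (adjusted p = 0.0459), and by 0.020 over the mean of its probe sets (adjusted p = 0.804). RCC1L changed there by -0.16 without passing (adjusted p = 0.0746). MTERF3 rose by 0.63 in SDS3 knockdown cells (adjusted p = 0.000154) and did not pass in FAM60A knockdown cells (0.065, adjusted p = 0.512). The rRNA methyltransferase MRM2 fell by 0.20 in SDS3 knockdown cells and by 0.56 in FAM60A knockdown cells (adjusted p = 0.02 and 4.71e-05). TFB1M, which methylates the small rRNA, rose in both (0.38 and 0.72), but without probe sets of shared sequence its changes were 0.11 and 0.066 and did not pass (adjusted p = 0.286 and 0.608). Of 12 genes of mitochondrial DNA transcription and replication 2 fell and 2 rose in SDS3 knockdown cells. These shares, 16.7% each way, were near those of all tested genes (18.8% and 15.8%). In FAM60A knockdown cells 5 fell (41.7%) and 2 rose (16.7%), beside 17.6% and 19.2%. TFAM, which packages mitochondrial DNA and starts its transcription, fell in both (-0.68 and -1.02), yet without probe sets of shared sequence the changes were -0.23 and -0.24 and did not pass (adjusted p = 0.105 and 0.108).

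Of 4 tested subunit genes under other names only DAP3 (mS29), a GTP-binding protein of the small subunit, was called. DAP3 rose in both (0.85 in SDS3 knockdown cells and 0.53 in FAM60A knockdown cells), and without probe sets of shared sequence the changes were 0.36 (adjusted p = 0.0339) and 0.012 (adjusted p = 0.906). Cytosolic ribosomal proteins gave few calls. Of 53 tested genes 2 fell in SDS3 knockdown cells, RPL14 (-0.22) and RPL6 (-0.20), and 1 fell in FAM60A knockdown cells, RPL36 (-0.20), with 0 higher in either. Their median changes were 0.028 and -0.015, and 26 of the 79 listed genes had no probe set of their own and were not tested.

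**Figure D5:**
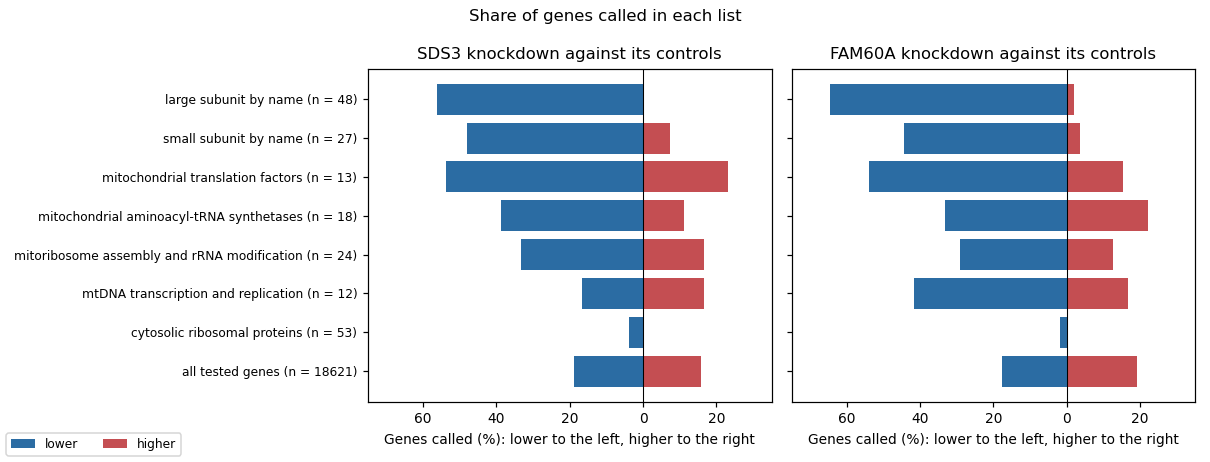
Share of genes called lower (blue, to the left) and higher (red, to the right) in each list at an adjusted p of 0.05, in SDS3 knockdown cells (left panel) and FAM60A knockdown cells (right panel), with the number of genes tested in brackets. Large subunit genes show the largest share of lower calls among the lists plotted (56.2% and 64.6%), cytosolic ribosomal proteins the smallest of those plotted (3.77% and 1.89%), and all tested genes stand at 18.8% and 17.6%.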

How the data were processed

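RNA of 12 samples of A549 cells was measured on 54675 Affymetrix probe sets. The intensity values that the authors deposited are linear and went through RMA, per the submitters' processing notes. Neither the RMA version nor the set of arrays it was run on is stated in those notes. Every later step used the log2 of the deposited values.

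Of the probe sets, 41097 had 1 gene symbol, 1801 several and 11777 none listed, and 41043 matched RefSeq's gene table (GRCh38.p14). A gene was its single-symbol probe set of highest mean, so levels of different genes were not compared. MRPL53 and MRPS24 are annotated only on probe sets with several symbols and are no members. Genes with 3 of 12 arrays at log2 5 were tested with limma 3.58.1 in R 4.3.3 (lmFit, eBayes, Benjamini-Hochberg over all genes, threshold 0.05), each knockdown with its controls in a fit of 6 arrays and the difference of the responses in a fit of 12. All adjusted p-values are limma's. Other probe sets came from a fit of every probe set. Tables used data.table, version 1.17.8, and pandas 2.3.3, exact permutation tests scipy 1.17.1. The code was tested on simulated data.

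Members and lists were chosen with earlier results of these data known, and lists are described by counts and medians without a test. Named genes were the targets, up to 10 rises and 10 falls per knockdown that passed with arrays not overlapping, up to 5 differences each way, non-protein genes, genes with a probe set passing the opposite way, MRPS30, MRPS18A and up to 4 genes per companion list and knockdown; others were chosen after their values were seen. Alternatives were other filters, probe set rules, scalings, fits and thresholds, a replicate block and each array left out. Replicate numbers did not pair the arrays, since same-numbered knockdown and control arrays deviated with correlations from -0.12 to 0.034. The number of arrays limits the precision.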

Additional observations from a re-analysis of the deposited data

Results flagged for a closer look

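The response to SDS3 knockdown differed from the response to FAM60A knockdown for 14 of the 75 mitoribosomal protein genes, by the limma contrast of both changes over 12 arrays (adjusted p under 0.05). Values are the SDS3 change minus the FAM60A change on the log2 scale. It was -1.10 for MRPL27, -0.52 for MRPL3, -0.51 for MRPL18 and -0.29 for MRPS34, whose responses were lower in the SDS3 experiment. It was 0.23 for MRPL12, 0.26 for MRPL13, 0.27 for MRPL47, 0.36 for MRPL11, 0.37 for MRPL52, 0.37 for MRPL22, 0.38 for MRPL15, 0.40 for MRPS31, 0.41 for MRPL43 and 0.43 for MRPL19, whose responses were higher in the SDS3 experiment. MRPL12 was named after its value was seen. Over all tested genes 15.3% differed to the lower side and 9.99% to the higher side. Groups of 3 arrays were too small for a check of single arrays that stand apart.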

How the results depend on the processing

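Of 693 alternative values for 36 changes or differences of named genes, 669 kept their direction and side of the threshold, 23 no longer passed and 1 turned, MRPS9 in SDS3 knockdown cells with spike-in scaling (-0.15). The 693 include settings that could hardly move a value. Level filters leave the change of a gene as it is, and probe set rules do so for genes with a single probe set. The 669 therefore overstate how well the values held. With spike-in scaling 65 genes were called in SDS3 knockdown cells and 3 differed between responses, and medians were -0.51 (large) and -0.47 (small) in SDS3 knockdown cells and -0.31 and -0.26 in FAM60A knockdown cells, beside the all-gene shift of -0.32 and -0.12. At an adjusted p of 0.01, 29 genes were called in FAM60A knockdown cells and 9 differed. The mean of all probe sets gave small subunit medians of -0.079 (SDS3) and -0.10 (FAM60A), and large minus small differences of -0.12 and -0.11. Without probe sets of shared sequence the SDS3 small subunit median was -0.10 and the difference -0.074. The FAM60A difference was -0.075 with quantile normalization and -0.087 with array weights, and counting MRPS30 and MRPS18A as large gave -0.068 (SDS3) and -0.098 (FAM60A). The cause of these moves was not tested. With each array left out in turn, calls ran from 33 to 39 (SDS3), from 35 to 46 (FAM60A) and from 11 to 15 (difference), large subunit medians from -0.20 to -0.18 and from -0.25 to -0.18, small subunit medians from -0.16 to -0.14 and from -0.20 to -0.092, and large minus small from -0.046 to -0.028 and from -0.089 to -0.022. With the replicate block 36 genes were called in SDS3 knockdown cells (35 lower), 40 in FAM60A knockdown cells (38 lower) and 12 differed, and MRPS9 was the only named call it changed. With 3 arrays a group, small changes of dim probe sets could not be resolved, and RMA removes shifts that most transcripts share.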

Other observations

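Probe sets annotated to several genes were left out of the members, and 4 of them carry a mitoribosomal symbol. No test was made of them, and their values (log2 signal, mean ± SD, n = 3 arrays) cannot be split between the genes. The probe set for MRPL53 and CCDC142 averaged 12.10 ± 0.041 in SDS3 knockdown cells and 12.25 ± 0.019 in SDS3 controls, and 12.82 ± 0.034 in FAM60A knockdown cells and 12.90 ± 0.10 in FAM60A controls. The probe set for MRPS24 and its read-through with URGCP averaged 13.48 ± 0.033 in SDS3 knockdown cells and 13.50 ± 0.034 in SDS3 controls, and 13.82 ± 0.037 in FAM60A knockdown cells and 13.77 ± 0.064 in FAM60A controls. The probe set for MRPL51 and SPTLC1 averaged 10.85 ± 0.019 in SDS3 knockdown cells and 10.96 ± 0.067 in SDS3 controls, and 11.18 ± 0.025 in FAM60A knockdown cells and 11.33 ± 0.089 in FAM60A controls. The probe set for THSD1 and the pseudogene MRPS31P5 averaged 8.71 ± 0.059 in SDS3 knockdown cells and 8.97 ± 0.054 in SDS3 controls, and 9.27 ± 0.046 in FAM60A knockdown cells and 9.50 ± 0.10 in FAM60A controls.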
